A study of Ovis aries with 4 samples.

Results

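Peaks of N6-methyladenosine (m6A) whose deposited label is 5' UTR or start codon are described here, as found in ovaries of Cele black sheep at 2 ages. Members were selected from the label column of the deposited peak lists alone, on either strand: 202 of 8034 peaks in all, of which 93 of 4378 came from the young list and 109 of 3656 from the aged list. They comprised 68 young and 91 aged peaks labelled 5' UTR, and 25 young and 18 aged peaks labelled start codon. They fell in 161 of the 5261 genes with a peak in either list.

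Ovarian tissue of sheep aged 1 to 2 years (young) and 5 to 6 years (aged) was used, with no treatment named in the labels. Of the 4 samples, 1 m6A immunoprecipitate and 1 untreated input at each age, only the peak list of each immunoprecipitate was analysed here. Each age had 1 list, so a difference between ages has no replicate check, and no p-value was computed. All intervals are 95% intervals that cover counting error only. The number of animals behind a sample is not given in the sources used here, nor is the depth of sequencing or the genome build of the coordinates. Transcript abundance was not analysed here, so a higher fold and a gene's presence in 1 list only cannot be read as more methylation. Of 50 marker genes of ovarian and other cell types, 29 had a peak of any label, and neither haemoglobin gene listed had one. Granulosa markers had a peak in 3 of 7 cases, FSHR among them. Theca and luteal markers had one in 3 of 6, the steroid synthesis gene STAR among them. INHBA, the inhibin and activin beta A subunit gene of granulosa cells, was the single marker with a peak at the 5' end.

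m6A is written on nascent messenger RNA by a methyltransferase complex built around METTL3 and METTL14, and it is known mainly from long internal exons, the region around stop codons and 3' UTRs. In 5' UTRs, where ribosomes load and scan for the start codon, it is rarer and is known for its effects on translation under stress. The first transcribed adenosine next to the cap can carry the related mark m6Am, which antibodies against m6A also bind. A peak near a transcript start therefore does not by itself tell the marks apart.

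Labels at the 5' end made up a small share of peaks at either age. They were 2.12% (1.74 to 2.60) of young and 2.98% (2.48 to 3.58) of aged peaks. The aged share was higher by 0.857 percentage points (0.167 to 1.57), and the excess lay in the 5' UTR label, at 0.936 points (0.321 to 1.58). The start codon shares were 0.571% and 0.492%, a difference of -0.0787 points (-0.404 to 0.260). On the minus strand the 2 labels together were 1.91% of young and 3.37% of aged peaks, a difference of 1.46 points (0.436 to 2.53). On the plus strand they were 2.30% and 2.61%, with an interval of the difference from -0.617 to 1.29. Whether the strands differ was not tested. These shares also move with the other labels of the lists. Among peaks labelled exon, 5' UTR or start codon only, a base chosen after the data were seen, members were 18.6% of 500 young and 16.3% of 668 aged peaks, a difference of -2.28 points (-6.77 to 2.07).

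**Figure D1:**
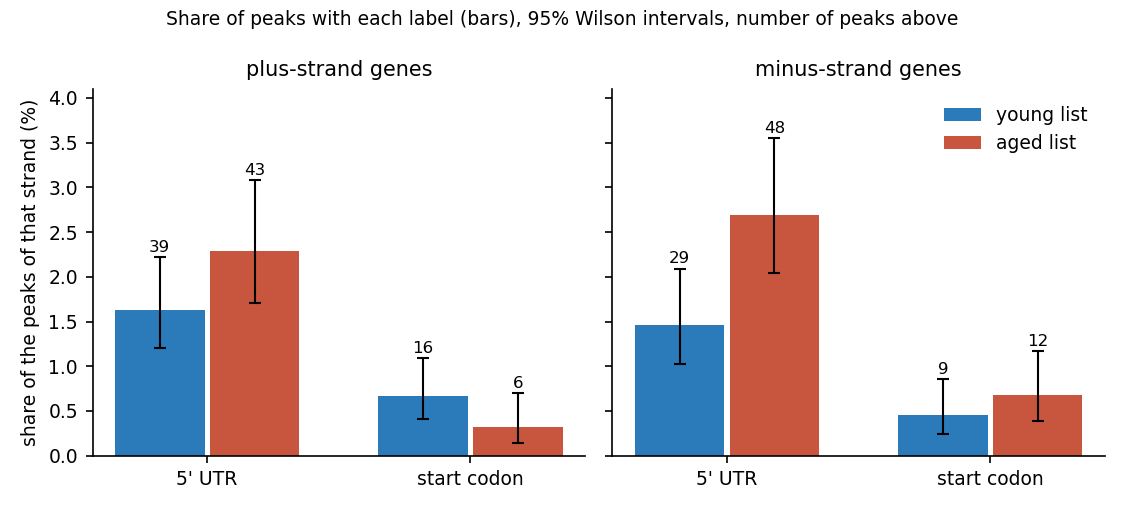
Share of the peaks of each strand (y axis, percent) labelled 5' UTR or start codon in the young and aged lists, with 95% Wilson intervals as error bars and the number of peaks above each bar. On minus-strand genes 48 aged peaks (2.69%) and 29 young peaks (1.46%) were labelled 5' UTR.

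Peak positions were set against a RefSeq table of sheep genes, in which distances run over the genome with introns included. Of the members, 91 young and 108 aged peaks had a gene in the table. Their 5' ends lay within 100 bases of the gene start in 12.1% of young and 14.8% of aged cases, against 0.258% and 0.255% of peaks with other labels. Within 1000 bases the shares were 36.3% and 36.1%, against 2.13% and 1.73%. The labels were themselves made from a gene annotation, so these contrasts follow in part from how members were chosen. The median distance was 2640 bases for young and 2717 bases for aged members. The labels thus covered peaks close to the table's gene start and others far inside the gene.

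Near the annotated start lay peaks of genes from several pathways. In the young list they included UPF2, a factor of nonsense-mediated mRNA decay (36 bases from the start), NTM, which encodes the cell adhesion protein neurotrimin (49 bases), NFATC4, a calcium-regulated transcription factor gene (54 bases), and ZNF827, a zinc finger gene (100 bases). In the aged list they included UPF2 at the same 36 bases, TRAM1 of the protein translocation channel (41 bases), LAG3, an inhibitory receptor of T cells (42 bases), RBM8A of the exon junction complex (49 bases), TOMM5 of the mitochondrial import pore (52 bases) and TUBA1C, an alpha-tubulin gene (99 bases). The peaks of UPF2, NFATC4, RBM8A and TOMM5 spanned introns, and that of TOMM5 ended 189 bases from its gene end. Members lay closer to the start than to the end of their gene in 67 of 91 young and 81 of 108 aged cases, or 73.6% and 75%. The shares were 4.69% and 5.07% for peaks with other labels, a contrast that again follows in part from the labels.

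Labels and positions disagreed for some members. The start codon peak of LMBR1L ended at the last base of its gene in both lists, as did the young start codon peak of LMOD1, the leiomodin gene of smooth muscle. The 5' UTR peaks of CALML4 and PA2G4 in the aged list and of MKNK1 in the young list ended 50, 50 and 49 bases from the gene end. At the other extreme, the 5' UTR peaks of AFAP1L2, GPR135 and TNRC18 in the young list began before the table's gene start, the nearest at -2277 bases and the farthest at -6219. The start codon peak of ADAM33 in the young list lay wholly past the gene end, with -3592 bases from its own end to that of the gene, and that of FAM228B in the aged list ran across the gene end, with -1132 bases. In all, 6 young and 5 aged members lay wholly before the gene start, against 1 and 5 of the 4263 and 3529 peaks with other labels.

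**Figure D2:**
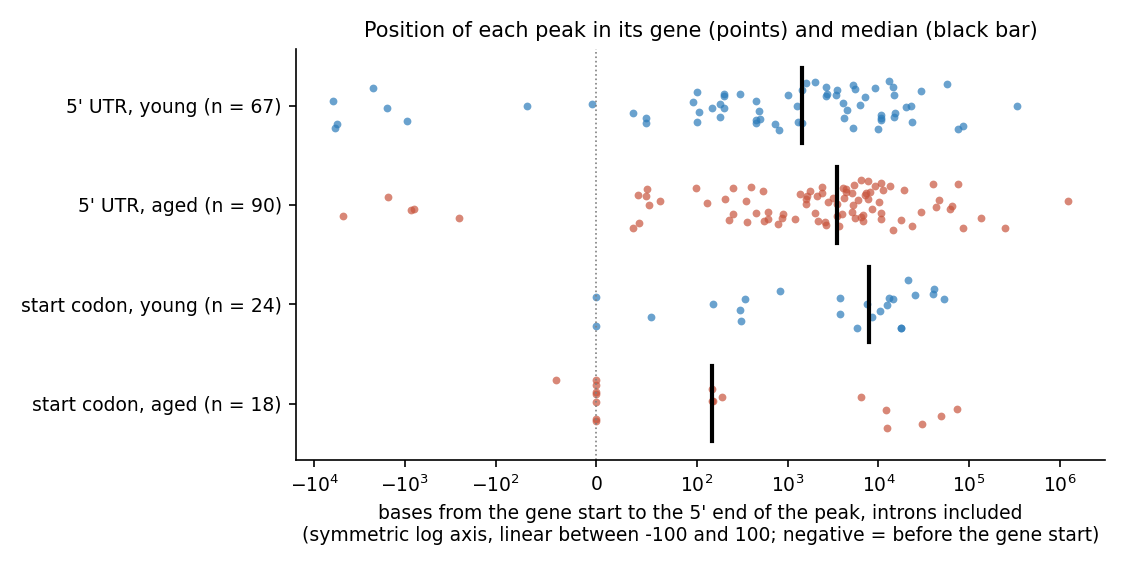
Distance in bases from the table's gene start to the 5' end of each peak (x axis, symmetric log scale, negative before the gene start), by label and list, with the median as a black bar. Medians were 1447 and 3498 bases for young and aged 5' UTR peaks, and 7986 and 147.5 bases for young and aged start codon peaks.

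The start codon label included each peak that began exactly at the first base of its gene. There were 9 such peaks, all labelled start codon: PABPC4, a poly(A)-binding protein gene, and LOC101105099 in the young list, and JTB, NEGR1, SON, VEZF1, ZC3H10, LOC101117088 and LOC101121639 in the aged list. None of the 157 members labelled 5' UTR with a gene in the table began there. All 7 aged peaks were on the minus strand, where the gene start is the higher genome coordinate. Over all labels, 338 aged peaks reached the higher coordinate of their gene and 0 of 3637 the lower one, where 306 stopped 49 or 50 bases inside instead. In the young list 730 peaks reached the higher and 552 the lower coordinate, and 116 stopped 49 or 50 bases inside the lower one. In the aged list, start codon labels on the plus and minus strands (6 and 12 peaks) thus stood beside an unequal reach at gene edges, and its part in the label counts was not tested. SON, which encodes a splicing cofactor of nuclear speckles, had a start codon peak of 550 bases with a fold of 2.05 in the aged list and a 3' UTR peak (2.33) in the young list.

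Fold enrichment, the authors' value for the signal of a peak over its background, was close to that of other peaks. The lowest fold in either list was 1.5. Young members had a median fold of 2.00 (1.79 to 2.13) and a range of 1.5 to 3.75, against a median of 2.05 for peaks with other labels. Aged members had a median of 1.90 (1.83 to 2.06) and a range of 1.5 to 6.67, against 1.88. A fold of at least 2 was reached by 50 of 93 young members (53.8%), where 58.3% of all young peaks reached it, and by 48 of 109 aged members (44.0%), where the background was 42.7%. Shares of members with a high fold were thus near the background in either list. An adjusted p above 0.05 was listed for 1 young member, NPY1R (0.251), and 3 aged ones, LEF1 (0.0832), TCEAL1 (0.0832) and TAF12 (0.450), against 0.228% and 3.28% of all peaks.

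**Figure D3:**
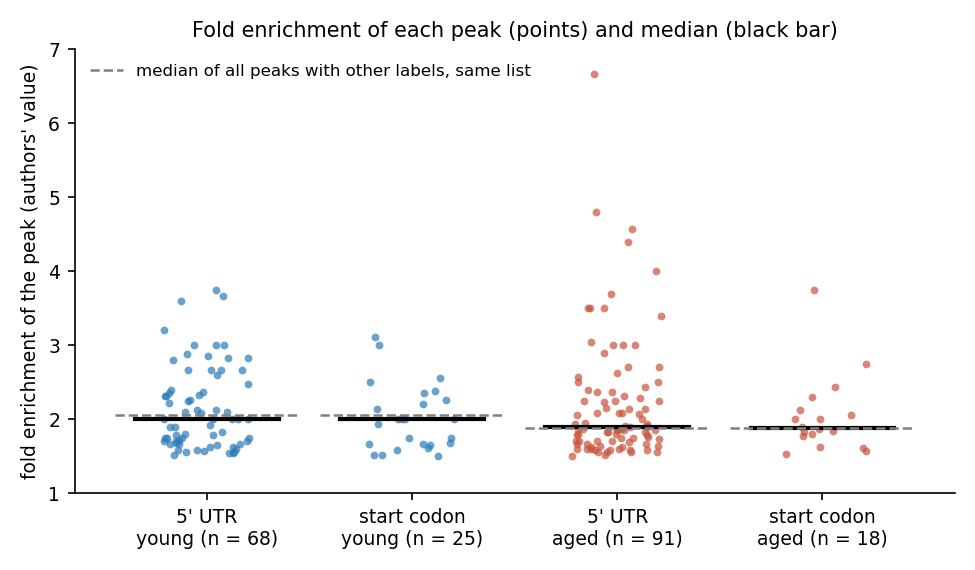
Fold enrichment of each 5' UTR and start codon peak (y axis, the authors' linear ratio) by list, with the median as a black bar and the median of all peaks with other labels of that list as a dashed line. Medians lay between 1.88 and 2.00, beside 2.05 (young) and 1.88 (aged) for other peaks, and LRRC4C stood highest at 6.67.

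The strongest young members, LOC genes aside, lay in genes of signalling, sterol synthesis and transcription. NPR3, the clearance receptor of natriuretic peptides, had the highest fold (3.75), in a 5' UTR peak on chromosome 16 (41148583 to 41148732) that began 199 bases after the gene start. IDI1, an isomerase of the isoprenoid and cholesterol pathway, followed at 3.67 (chromosome 13, 45918375 to 45918524), and TNRC18 at 3.60. TBX3, a T-box repressor, had a fold of 3.20 but an adjusted p of 0.0158, the weakest support among the leading folds. NFATC4 had the highest start codon fold at 3.11. ARMC12, CAGE1, SMIM15 and MRPL57, a protein gene of the mitochondrial ribosome, stood at 3.00 each. LATS2, a kinase of the Hippo pathway, completed the leading 10 at 2.86, with further 3' UTR peaks at both ages (2.57 young and 2.74 aged). Of these 10 genes, NPR3, NFATC4, CAGE1 and MRPL57 had no aged peak, while IDI1, TBX3, TNRC18 and LATS2 had aged peaks in the exon or 3' UTR only. Absence from the aged list was common, as 43.4% of all young genes with a peak had an aged one.

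The strongest aged members, LOC genes aside, shared no gene with these 10. LRRC4C, which encodes a netrin-G1 ligand of synapses, had a 5' UTR peak with a fold of 6.67 on chromosome 15 (69526208 to 69526407), 1236088 bases inside its gene. ST3GAL1, a sialyltransferase gene, followed at 4.57 but with an adjusted p of 0.0240. EEFSEC, the elongation factor that delivers selenocysteine to the ribosome, stood at 4.40, and SRR, which encodes serine racemase, at 4.00 with another 5' UTR peak at 1.67. PLXNA1, a semaphorin receptor gene, had the highest start codon fold at 3.75. TUBA1C (3.69), the zinc finger gene ZNF672 (3.50), the homeobox gene HOXA3 (3.4), TRAM1 (3.04) and CDC42EP5, an effector of the GTPase CDC42 (3.00), completed the 10, with CXXC5 and ZC3H11A at the same 3.00. Of the 10, LRRC4C, PLXNA1, TUBA1C, TRAM1 and CDC42EP5 had no young peak, where 54.1% of all aged genes with a peak had a young one. The other start codon peaks with the highest aged folds were those of PGBD1 (2.75), the myocyte enhancer factor gene MEF2C (2.44), NEGR1 (2.30) and LMBR1L (2.12). In the young list they were CAGE1 (3.00), the cilium gene RSPH9 (2.56), the proteasome subunit gene PSMD1 (2.50) and BRD9 (2.38), a bromodomain protein gene of chromatin remodelling complexes. The lowest folds were those of SAMD4A (1.5), TNRC6C (1.52) and LMOD1 (1.52) in the young list and of HSPA14 (1.5), IFT20 (1.52) and ZNF787 (1.55) in the aged list.

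About 1 member in 3 lay at a peak of the other list. A shared base on the same strand was found with an aged peak for 31 of 93 young members (33.3%, 24.6 to 43.4), where 34.3% of all young peaks did. Of the aged members, 35 of 109 overlapped a young peak (32.1%, 24.1 to 41.4), where 41.0% of all aged peaks did, a share inside the interval of the members. The young share was 42.6% (29 of 68) for 5' UTR peaks and 8.00% (2 of 25, 2.22 to 25) for start codon peaks, the latter in BRD9 and LMBR1L. In the aged list the shares were 31.9% (29 of 91) and 33.3% (6 of 18, 16.3 to 56.3), so the low share of start codon peaks was seen in the young list only, and the difference between lists was not tested. Where members overlapped, the label was mostly of the same kind. Of the 31 young members, 30 met an aged peak labelled 5' UTR or start codon, and of the 35 aged members, 29 met a young one. The exceptions in the aged list were CALML4, ELOC, RBM8A, HMGN2 (deposited symbol HMGN2P46), FAM228B and DHX34, whose young counterparts were labelled 3' UTR, exon or stop codon. All of these exceptions spanned introns. For DHX34 the young peak belonged to another gene, C5AR2.

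Overlapping members of the same gene formed 27 pairs, whose folds are set side by side although sequencing depth is unknown. The aged fold was the higher in 14 and the young fold in 13. In the 1483 overlapping pairs with other labels the aged fold was higher in 42.1%, inside the interval of the members' share of 51.9% (34 to 69.3). A few pairs differed widely. The ST3GAL1 peak (chromosome 9, 20965402 to 20965551) had identical boundaries in both lists, with folds of 1.58 (young) and 4.57 (aged). EEFSEC had folds of 2.10 and 4.40, HOXA3 1.72 and 3.4, LOC121818985 1.83 and 3.50, and LOC101109032, whose deposited symbol is that of the chaperonin-like gene MKKS, 2.88 and 4.80. The aged fold was thus at least 1.5 times the young one in 5 of 27 pairs (18.5%), where 7.15% of other pairs passed that ratio. The young fold was as much higher in SMIM15 (3.00 and 1.94) and BRD9 (2.38 and 1.57), or 7.41% of pairs against 13.4% of others. These shares rest on few pairs from 1 list per age, and their difference from other pairs was not tested.

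The remaining pairs had folds nearer to each other. IGF2, which encodes a growth factor of fetal and ovarian growth, had a 5' UTR peak with folds of 1.79 and 2.06 that began at the same base (chromosome 21, 45785325), 10569 bases after the gene start. PDCD4, a repressor of translation initiation, had 2.67 and 2.40, and UPF2 had 2.26 and 1.87. FOXP1, a forkhead transcription factor gene, had 2.00 and 2.50, and ZNF827 had 1.90 and 2.43. ARMC12 (3.00 and 2.28), the chemokine gene CCL25 (2.83 and 2.09) and CD2BP2 (2.12 and 2.32) had identical boundaries, as did ST3GAL1 and LOC121818985. LMBR1L had 2.00 and 2.12, ABT1 2.00 and 2.57, RWDD1 2.32 and 1.93, LMNTD1 1.89 and 1.71, GFRA4 1.65 and 1.60, and PA2G4 1.54 and 1.60. The GFRA4 peaks were adjacent and shared only 1 base, at 51247995 on chromosome 13. Of the 25 pairs whose ends lay within 1000 bases of each other, 22 had starts and ends that differed by 0 or by a multiple of 50 bases, to within 1 base.

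**Figure D4:**
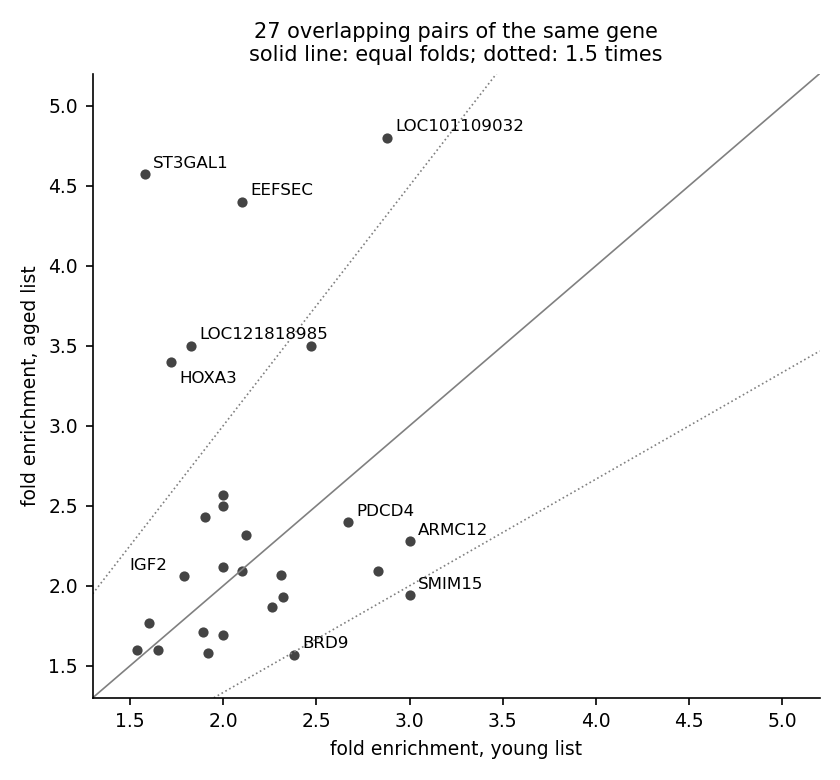
Fold enrichment in the young list (x axis) and the aged list (y axis) of the 27 overlapping pairs of 5' UTR or start codon peaks in the same gene, with a line of equal folds and dotted lines at a ratio of 1.5. ST3GAL1, EEFSEC, HOXA3, LOC121818985 and LOC101109032 lie above the upper dotted line, and SMIM15 and BRD9 below the lower one.

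Members differed from other peaks in their surroundings. They spanned at least 1 intron in 36 of 93 young cases (38.7%, 29.4 to 48.9) and 46 of 109 aged cases (42.2%, 33.4 to 51.6), where 16.9% and 22.5% of all peaks did. The share was highest for start codon peaks, 72.0% (18 of 25) and 66.7% (12 of 18), near the 69.5% and 60.8% of peaks labelled exon. INHBA was an example, with a young start codon peak of 596 bases over 5243 bases of genome (fold 2.26) and an exon peak (2.67). UPF2 had the widest young member, with 598 bases. TPM1, a tropomyosin gene with the deposited symbol TPM3, had the widest aged one, with 899 bases, followed by INSYN1 with 748.

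Several members lay where 2 genes meet. Of members within 1 exon, 20 of 57 young (35.1%, 24 to 48.1) and 15 of 63 aged (23.8%, 15.0 to 35.6) overlapped the span of another protein-coding gene in the table, on either strand, against 12.5% and 12.3% of peaks with other labels. In the same list and on the same strand, 9 of 93 young (9.68%, 5.18 to 17.4) and 4 of 109 aged members (3.67%, 1.44 to 9.06) overlapped another peak, where 0.571% and 0.410% of all peaks did. For each of these the overlapped peak was assigned to another gene. Overlap was of genomic span, so members that span introns may share no covered base with the other peak. Such cases may include aged DHX34 (150 bases over a span of 7362) and LOC114108644 (249 bases over 54988 in the aged list).

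The doubly assigned peaks named next show how a stretch of RNA can carry the labels of 2 genes. In the young list 1 stretch on chromosome 1 (21113145 to 21113294) was a 5' UTR peak of MKNK1, a kinase gene of translation control, 49 bases before its end, and to within 1 base also of KNCN, 804 bases after its start, each with a fold of 1.71. On chromosome 22 a 5' UTR peak of AFAP1L2 (fold 2.13) lay at -2277 bases from that gene's start and overlapped a peak of ABLIM1 (1.74) that ended 400 bases from its gene end. On chromosome 11 the young 5' UTR peaks of VEZF1, a zinc finger gene of vascular development, and SRSF1, a splicing factor gene, overlapped, with folds of 1.60 and 1.68, and 1 aged peak met them, assigned to VEZF1 as start codon (1.77). On chromosome 3 the aged 5' UTR peak of PA2G4 (1.60) and the start codon peak of ZC3H10 (1.61) had nearly the same genomic span. The former lay 50 bases from its gene end and the latter at the first base of its gene. Both spanned introns, with 349 covered bases over a span of 1395, and whether they share covered bases was not tested. The histone H2A genes LOC101122398 and LOC101122904 shared a young 5' UTR stretch, with folds of 2.37 and 2.47. They carry the same deposited symbol, H2AC21, so the split of signal between them is uncertain. For these peaks the gene named by the label cannot be told apart from its neighbour, and their part in the shares above is given with the alternatives.

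**Figure D5:**
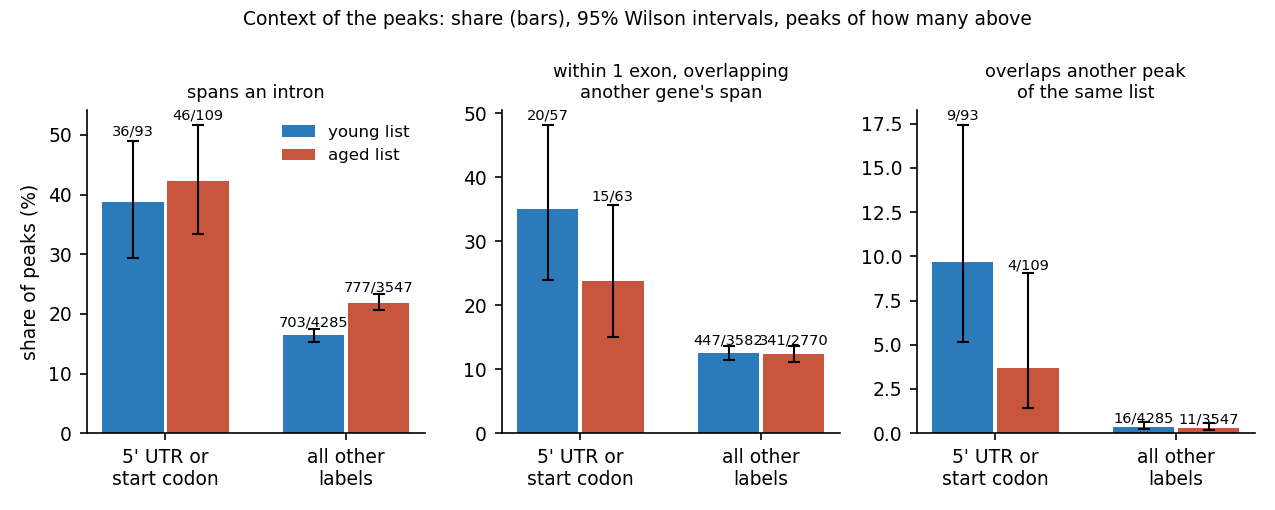
Share of peaks (y axis, percent) that span an intron, that lie within 1 exon and overlap another protein-coding gene's span, and that overlap another peak of the same list, for 5' UTR or start codon peaks and all other peaks of each list, with 95% Wilson intervals and the counts above. The members' shares of intron-spanning peaks were 38.7% and 42.2%, against 16.4% and 21.9% of other peaks.

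Genes with a member often had further peaks. In the young list 30 of 88 such genes (34.1%, 25 to 44.5) had more than 1 peak, where 12.1% of all genes with a peak did, and in the aged list 39 of 100 (39.0%, 30.0 to 48.8) against 15.1%. A gene with several peaks has more chances to hold a peak of a rare label. How far this enters these shares was not tested, and they are not read here as a property of 5' ends. A peak of another label in the same list was found for 27 young and 35 aged genes. TSHZ2 of the teashirt family had young 5' UTR peaks at -4 and 296 bases from its start (folds of 2.33 and 1.57). It had 3 further young peaks, a stop codon peak (2.31) among them. Its aged peaks were both labelled stop codon, and that with a fold of 1.78 overlapped the young stop codon peak in genomic span. FOXP1 had young 5' UTR peaks at 200 and 4040 bases and a 3' UTR peak, and PDCD4 had a 5' UTR and a 3' UTR peak at both ages. In the aged list CD2BP2 had 3 peaks, all labelled 5' UTR (2.32, 1.86 and 1.59), as did GABPB2 (1.91, 1.86 and 1.56), a subunit of an ETS transcription factor. IGF2 had its 5' UTR peak with 1 further peak in the young and 3 further peaks in the aged list.

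By gene, 27 genes had a member in both lists. Of the 88 young genes, 40 (45.5%, 35.5 to 55.8) had an aged peak of any label, where 43.4% of all young genes did, and of the 100 aged genes 54 (54.0%, 44.3 to 63.4) had a young peak, where the background was 54.1%. The shares of genes with a peak of any label in the other list were thus near the background. For 13 young and 27 aged genes the peaks in the other list all had another label. No share over all genes is given for these counts. ZNF672 had an aged 5' UTR peak (3.50) and a young 3' UTR peak (3.33), SRR likewise (4.00 and 2.33), and MBNL1, a splicing regulator gene, likewise (2.25 and 3.00). The aged list also held the 3' UTR peak of MBNL1, with the same boundaries (1.51). For ZNF672 it held a stop codon peak (1.62) that began at the same base as the young 3' UTR peak. COP1, a ubiquitin ligase gene, had a young 5' UTR peak (2.25) and 2 aged exon peaks (1.89 and 1.70). The other 48 young and 46 aged genes had no peak in the other list.

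Genes were also counted by 9 lists of gene families, set by name rules, so the counts are not complete for a family. The zinc finger gene VEZF1 and the kinase genes LATS2 and MKNK1, for example, were in none of the lists. Genes of the transcription factor list were the most frequent, with 7 of 88 young genes (7.95%, 3.91 to 15.5) and 9 of 100 aged genes (9%, 4.81 to 16.2). Of all genes with a peak, 4.16% and 5.22% belonged to that list. The young ones were TBX3 (3.20), NFATC4 (3.11), TSHZ2, FOXP1, ZNF827, ZNF428 (1.75) and HOXA3. The aged ones were ZNF672, HOXA3, MAFK (2.62), a small MAF protein gene, FOXP1, MEF2C, ZNF827, ZNF22 (1.91), the orphan nuclear receptor gene NR2F1 (1.86) and ZNF787. Genes of RNA binding and splicing were 4 young ones, NSRP1 (2.67), PABPC4 (2.35), SRSF1 and TNRC6C, a partner of Argonaute proteins. The 5 aged ones were MBNL1, RBM8A (2.15), SON, DHX34 (2.00), a helicase gene, and HNRNPH3 (1.95, deposited symbol HNRNPH1). The young and aged shares of this list were 4.55% and 5.00%, against 2.42% and 2.20% of all genes with a peak. The background lay inside the members' intervals for each of these. Neither METTL3 nor METTL14 was among these genes.

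The other lists held few members, some above and some below their share of all genes with a peak, and for each of them that share lay inside the members' interval. Among young genes, chromatin genes were 3.41% against 1.27%, growth factor, receptor and steroid genes 3.41% against 1.82%, translation genes 3.41% against 2.11% and genes of protein folding and ubiquitin 3.41% against 3.20%. Signalling genes were 1.14% against 3.67%, and matrix and cytoskeleton genes 1.14% against 1.59%. In the aged list translation genes were 2 of 100 against 1.3%, growth factor, receptor and steroid genes 2 of 100 against 2.30%, and transport and mitochondrial genes 3 of 100 against 3.76%. Genes of protein folding and ubiquitin were 2 of 100 against 3.37%, signalling genes 2 of 100 against 3.92%, chromatin genes 1 of 100 against 1.56% and matrix and cytoskeleton genes 1 of 100 against 1.98%. Growth factor, receptor and steroid genes were INHBA, IGF2 and GPR135 (1.75) in the young list and IGF2 and PLXNA1 in the aged list. Genes of protein folding and ubiquitin were UBE2D3 (2.67, adjusted p 0.0437), a ubiquitin-conjugating enzyme gene, PSMD1 and DNAJC10 (1.54) in the young list, and RNF220 (1.86) and HSPA14 in the aged list. Translation genes were MRPL57, PDCD4 and EEFSEC in the young list, the last 2 of which were also the aged ones. PRKAA1 (2.60), the catalytic subunit gene of AMP-activated kinase, was the only kinase of the signalling list among young members. ARHGEF19 (2.89) and PPP4R4 (1.82) were the aged ones. Of chromatin genes, BRD9 was a member at both ages and SMARCD3 (1.68), a SWI/SNF subunit gene, in the young list. The name rule of that list also took in KATNAL1 (2.83), which encodes a microtubule-severing enzyme. ADAM33 (2.00) of the young and TUBA1C of the aged list were the matrix and cytoskeleton genes. Genes of transport and mitochondria were TIMM9 (2.14), TOMM5 (1.82), both of mitochondrial import, and SLC5A10 (1.78) in the aged list. None was a young member, where 4.03% of all young genes belonged to the list. A count of 0 of 88 allows a share of up to 3.41% by the limit of 3 counts, and its Wilson interval reaches 4.18%, which holds the background.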

How the data were processed

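The authors deposited 1 list of m6A peaks per age with a feature label and gene for each peak. ChIPseeker and DESeq2 appear, without a role, in the submitters' processing notes. Which aligner, peak caller and build were used is not given in the sources used here. For each peak the deposited columns, per the file headers, are a p-value, an adjusted p-value, a fold enrichment (a linear ratio) and log10 p columns, treated as a score. Every deposited peak was used, and depth per sample was not available from these values.

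Members and lists were chosen with earlier results of these data known. Coordinates are printed 1-based. Gene starts and ends came from a RefSeq table of assembly ARS-UI_Ramb_v3.0, matched by gene identifier for 99.5% of peaks in either list. Overlap meant at least 1 shared base of genomic span on the same strand. Shares have Wilson intervals, differences of shares Newcombe intervals and medians order-statistic intervals, at 95%. Overlap code was tested on simulated data. Named genes, LOC genes left out, were the 10 highest folds, the 5 highest start codon folds, the 3 lowest folds and the 2 widest peaks per list, overlapping members, genes with several members, and members of the 9 family lists, at most the 8 highest folds of a list. Genes named for position, shared stretches, edges, ties, peaks of another label or an adjusted p above 0.05, and all LOC genes, were chosen after their values were seen. Alternatives were stricter folds and adjusted p, single labels, single strands, peaks within 1 exon, other overlap and distance limits, and no LOC genes. Overlap within exons only was not run, and sequences were not used here. Python 3.11.15, pandas 2.3.3, numpy 2.4.6 and scipy 1.17.1 were used.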

Additional observations from a re-analysis of the deposited data

How the results depend on the processing

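Of 80 values recomputed under the alternatives, 61 stayed within the 95% interval of the reported value. Values outside it were as follows. A wider or narrower distance or a stricter overlap moves its count, a stricter fold raises the median fold, and a single label lowers the share of peaks, by construction. For the other values the cause was not tested. With folds of at least 2, median folds were 2.37 (young) and 2.44 (aged), and the share of aged genes with a young peak was 37.5%. The share of all aged genes at that fold is not given here, so 37.5% has no background. With the 5' UTR label alone, the young share of peaks was 1.55%, the young genes with an aged peak 56.2%, and the aged peaks within 100 bases of the start 8.89%. With the start codon label alone, shares of peaks were 0.571% and 0.492%, young members overlapping an aged peak 8.00%, young genes with an aged peak 16.0%, and aged peaks near the start 44.4%. The single-label shares of young genes with an aged peak, 56.2% and 16.0%, stand beside 43.4% of all young genes. With peaks within 1 exon, shares were 1.57% and 2.22%, and the aged median fold 2.08. Overlap of 50% of both peaks left 23.7% of young and 20.2% of aged members. Within 50 bases of the gene start lay 6.59% of young members, and within 500 bases 30.8% of young and 27.8% of aged members. Without peaks that overlap another peak of their list, an alternative chosen after seeing the data, the shares were 1.93% and 2.88% and the overlaps with the other list 29.8% and 27.6%, all within the intervals. No paired analysis was possible because each age has 1 peak list. Depth is unknown, so weak peaks missing from 1 list may lie under its detection limit.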
